A study of Drosophila melanogaster with 2 samples.

Results

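The 58 genes described here are homeobox genes of Drosophila melanogaster that lie outside the Hox complexes, taken by name from a list and all found in the dm6 annotation among 13945 protein-coding genes. They were examined for binding of CG34367, itself a homeodomain protein, by ChIP-seq in whole pupae aged 24 hours. The animals were a transgenic line that stably expresses CG34367 joined at its C-terminus to GFP, and the chromatin was recovered with an antibody against GFP. There were 2 libraries, labelled as separate biological replicates, in a single group, and no group without the tagged protein was analysed here. The labels do not give the number or sex of the animals, and say nothing of which cells carry the tagged protein, so binding in a few cell types cannot be told apart from weak binding in many. Of the 58 genes, 19 belong to the paired class, 16 to the NK-like class, 6 to the HOX-like genes outside the complexes, 5 to TALE, 4 each to LIM and POU, 3 to the sine oculis class and 1 to CUT. With 1 group no comparison between conditions was possible, and the counts below are descriptions set beside the same counts over all genes or peaks, with no test.

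A homeodomain is a compact DNA-binding fold whose recognition helix reads short AT-rich sequences, most often around a TAAT core. The classes differ in what accompanies it. Paired-class proteins may carry a paired domain, LIM proteins carry zinc-binding LIM domains, POU and CUT proteins carry a further DNA-binding domain, and TALE proteins have a longer loop inside the homeodomain and often act as partners of other homeodomain proteins. In the fly these genes lay out segments, appendages, eyes, heart and neuron types, and many of them stand in gene-poor stretches whose enhancers can lie far from the promoter.

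The joint list, made by the authors with a threshold on the irreproducible discovery rate (IDR, a measure of how well peak ranks repeat between libraries), holds 6270 peaks, and 76 of their summits had one of the 58 genes as the nearest protein-coding gene. The windows below cover 50 bp on either side of 8 of these summits, on the plus strand of the RefSeq assembly to which dm6 corresponds. Shown are the strongest peaks at ct, tin, nub, ems and hth, and peaks at OdsH, Lim1 and B-H2 that hold the homeodomain core TAATTA. Capitals mark TAATTA or TAATTG on either strand, the latter reading CAATTA when it lies on the minus strand.
ct, chrX:7604625-7604725: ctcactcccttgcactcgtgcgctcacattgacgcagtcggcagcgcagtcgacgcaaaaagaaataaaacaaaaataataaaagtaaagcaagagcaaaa
tin, chr3R:21378707-21378807: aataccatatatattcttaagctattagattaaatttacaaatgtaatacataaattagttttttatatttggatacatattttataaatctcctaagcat
nub, chr2L:12602335-12602435: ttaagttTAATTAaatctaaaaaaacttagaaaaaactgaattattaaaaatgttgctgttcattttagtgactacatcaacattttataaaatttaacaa
ems, chr3R:13921947-13922047: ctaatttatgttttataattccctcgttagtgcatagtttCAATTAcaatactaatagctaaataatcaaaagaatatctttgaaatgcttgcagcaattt
hth, chr3R:10533314-10533414: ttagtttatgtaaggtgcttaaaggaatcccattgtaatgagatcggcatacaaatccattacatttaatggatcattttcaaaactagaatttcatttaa
OdsH, chrX:17807098-17807198: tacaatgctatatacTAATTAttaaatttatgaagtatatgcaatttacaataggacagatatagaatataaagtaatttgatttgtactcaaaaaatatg
Lim1, chrX:8774207-8774307: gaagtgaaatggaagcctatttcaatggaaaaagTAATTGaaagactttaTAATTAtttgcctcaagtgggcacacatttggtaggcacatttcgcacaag
B-H2, chrX:17332569-17332669: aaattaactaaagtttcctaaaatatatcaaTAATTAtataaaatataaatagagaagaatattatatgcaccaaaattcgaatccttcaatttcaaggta
The 3 windows of ct, tin and hth hold neither core, and the tin window is made mostly of A and T, with a GC content of 17.8%. The Lim1 window holds both cores. The 8 windows were picked for display and do not give the share with a core. Peaks at inv and otp, stronger than that at ems and without either core, are not shown. Over all 76 windows, 11 (14.5%) held TAATTA or TAATTG.

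Binding was counted in 3 ways. A summit within 500 bp of a transcription start site (TSS) was found at 6 of the 58 genes (10.3%), where 17.4% of all protein-coding genes had one. A summit inside the gene, between its outermost annotated ends, was found at 13 (22.4%), against 13.3% of all genes. As nearest gene at any distance, 26 of the 58 (44.8%) had a summit, against 22.3%. In the joint list the share was thus below that of all genes at starts, and above it inside genes and as nearest gene. These are long genes, with a median length of 12058.5 bp against 2166 bp over all protein-coding genes, and length was considered next.

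Split by length, the higher shares did not hold throughout. Of genes up to 5000 bp, 6 of 19 homeobox genes were nearest to a summit, against 14.2% of all genes of that length. From 5000 to 20000 bp it was 11 of 21, or 52.4%, against 40.1%. From 20000 to 50000 bp the order turned, with 7 of 16 (43.8%) against 60.6%. Both genes longer than that, hth and ct, had summits, as did 67.1% of all such genes. For summits inside the gene, the shares were 0 of 19 against 4.84% in the shortest class, 6 of 21 (28.6%) against 30.9% in the next and 5 of 16 (31.3%) against 55.7% in the third. For summits inside the gene, only the class from 20000 to 50000 bp departed from the background by more than 1 gene, and it was below it, although the share over all lengths together was above. At promoters it was 1 of 19 (5.26%) against 14.2% in the shortest class and 2 of 21 (9.52%) against 26.0% in the next. From 20000 to 50000 bp it was 2 of 16 (12.5%) against 30.2%. In the longest class ct had a promoter summit and hth did not. The promoter share was thus below that of all genes in each class up to 50000 bp. The length classes were drawn after the counts were seen.

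**Figure D1:**
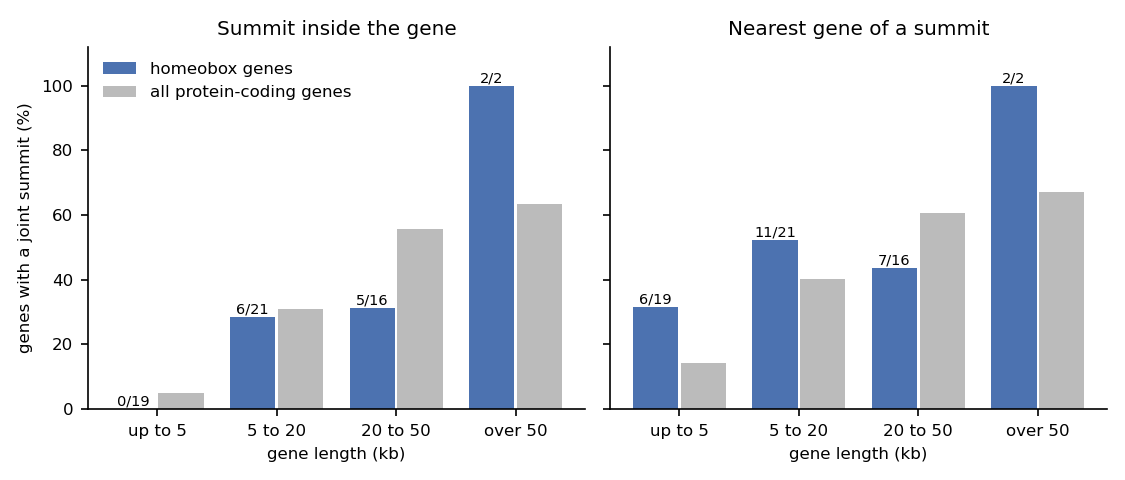
Percentage of genes with a joint summit inside (left) or as nearest gene (right), by gene length in kb, for the 58 homeobox genes (blue, with counts above the bars) and all 13945 protein-coding genes (grey). In the left panel the blue bar stands clearly below the grey one from 20000 to 50000 bp, and in the right panel blue bars stand above grey ones only in the 2 shorter classes and the longest, which holds 2 homeobox genes.

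Per length of sequence, the homeobox genes had fewer summits than the genome. All positions with one of them as nearest gene came to 1925 kb, 1.44% of the arms, and held 1.21% of the joint summits. That is 0.395 summits per 10 kb, against 0.468 over all arms. The value was 0.356 without hth and 0.443 without scro, an NK-like brain gene whose surroundings of 208740 bp held no summit. Counted on the strongest peaks of one library at a time it was 0.442 in replicate 1 and 0.322 in replicate 2. Within gene bodies the density was 0.358 per 10 kb, and 0.260 without hth, against 0.437 over all protein-coding gene bodies. Across the 58 genes, the number of nearest summits went with the length of these surroundings (Spearman's rho 0.56, a description over genes that in part share them).

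The libraries were counted singly, each with its 6270 strongest peaks. As nearest gene, 29 of the 58 (all genes 22.8%) had a summit in replicate 1 and 22 (37.9%, all genes 21.9%) in replicate 2, and 21 genes had one in both. Inside the gene it was 13 in each library (all genes 13.4% in each), and 12 genes in both. Promoters parted the libraries, with 12 genes (20.7%, all genes 18.3%) in replicate 1 and 5 (8.62%, all genes 17.1%) in replicate 2, a mean of 8.5 ± 4.95 (SD, n = 2). Against genes of any length, the low share at promoters was thus that of the joint list and replicate 2, and in replicate 1 the share was near the background. The split by length was made for the joint list only, where the promoter share was below that of all genes in each class up to 50000 bp. The promoter shares of the single libraries and of the pooled list are not matched for length. The 5 genes of replicate 2, which are ct, tin, oc, so and Dll, were all among those of replicate 1. The 7 in replicate 1 alone were caup, mirr, unc-4, vnd, vvl, H2.0 and cad. How many of all protein-coding genes were called in both libraries, or in 1 alone, is not given here for any of the 3 counts. In the pooled list with a q-value no higher than 0.05, 20 of the 58 (34.5%) had a promoter summit against 30.1% of all genes. The low share against genes of any length thus did not hold there either. In that list 21 (36.2%, all genes 21.0%) had a summit inside and 34 (58.6%, all genes 34.5%) were nearest to one. With the 3135 strongest joint peaks the counts were 3 at promoters (5.17%, all genes 9.8%), 7 inside (12.1%, all genes 8.29%) and 15 as nearest gene (25.9%, all genes 13.9%). With each gene extended by 2000 bp on both sides, 22 (37.9%, all genes 34.0%) held a joint summit. The higher share as nearest gene was thus seen in each of these lists, and the share inside came near the background once genes were extended. The lists overlap and come from the same 2 libraries, so they are not independent of each other.

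**Figure D2:**
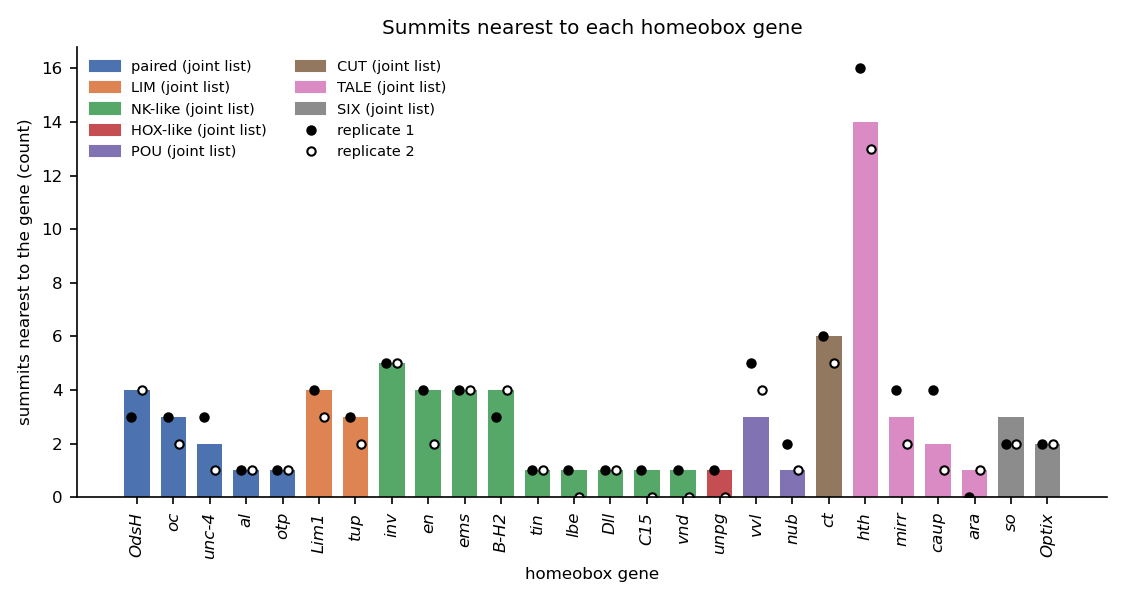
Number of joint summits nearest to each of the 26 homeobox genes that have any (bars, coloured by class), with the number among the 6270 strongest peaks of replicate 1 (filled circles) and replicate 2 (open circles). The TALE gene hth stands highest with 14, 16 and 13, and the other genes have 1 to 6 in the joint list.

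The strongest peak near any of the genes lay 3753 bp upstream of the start of ct on X (7604489 to 7604833). ct encodes the CUT homeodomain protein Cut, which directs external sensory organ identity and the wing margin. The deposited signal there was 1083, rank 245 of the joint list, with rank 474 in replicate 1 and 141 in replicate 2. No peak of the 58 genes was among the 100 strongest joint peaks, and 2 were among the 1000 strongest. The other was at tin, which encodes the NK-class factor Tinman of heart and visceral muscle. Its summit lay 220 bp upstream of the TSS on 3R (21378624 to 21378887), with signal 878 and rank 402, and with ranks 518 and 320 in replicates 1 and 2. The ct and tin peaks thus stood high in both libraries, each of which lists 30000 peaks.

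Peaks at promoters numbered 7, at 6 genes. Besides tin, ct had one 241 bp from its TSS (signal 362). The head and ocellus gene oc (orthodenticle, paired class) had a pair, at 147 bp (signal 276) and 346 bp (147). The eye gene so (sine oculis) had one at 278 bp (232), the distal limb gene Dll (Distal-less, NK-like) at 88 bp (202) and the neuroblast gene vnd (NK-like) at 15 bp (142). Only the tin peak stood above the upper quartile of joint signal, 412. The vnd peak had rank 5264 in replicate 1 and overlapped none of the 30000 peaks of replicate 2. The 2 oc peaks overlap each other and match the same single peak in each library, so they may be counted as 1 place, and the same holds for a pair of peaks in intron 6 of so. In the joint list a window of 1000 bp gave the same 6 genes as that of 500 bp, and a window of 250 bp gave 5. The promoter summit farthest from its TSS was at 346 bp and the nearest of the others at 2546 bp.

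The gene with most summits was hth, with 14. hth (homothorax, FBgn0001235, TALE) encodes the partner that brings Extradenticle into the nucleus, and marks proximal limb and antennal fate. It spans 132008 bp on 3R (10507561 to 10639568), and 13 of the summits lay in its introns, 3 in intron 1, 3 in introns 4 to 6 and 7 in introns 7 to 11. The last was 31405 bp past its 3' end. Their signals ran from 139 to 376, with a median of 244. Of the 14, 2 were below the lower quartile of joint signal and 0 above its upper quartile. In replicate 1 the signal at these places ran from 59.6 to 204 and in replicate 2 from 42.3 to 198, each on its library's own scale. The other 4 TALE genes had 6 summits. These were 3 at mirr, 2 at caup and 1 at ara, the 3 genes of the Iroquois complex that pattern the eye and the notum, and none at exd, the gene of the Extradenticle partner.

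ct came next with 6 summits, 3 upstream and 3 in introns (X, 7608428 to 7678859). The invected gene inv, which with its neighbour en sets posterior compartment identity, had 5. Of these, 3 lay in its introns and reached a signal of 508 (2R, 11500061 to 11500376, rank 891 in replicate 1 and 1361 in replicate 2). en had 4, all 11259 to 22994 bp upstream of its start, with signals from 143 to 275. Between the outer ends of inv and en, 53.7 kb held 5 summits in the joint list and 5 in each library. The pair thus carried 9 nearest summits, and 0 of the 9 were at a promoter.

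The other genes with 4 summits were ems, Lim1, OdsH and B-H2. ems (empty spiracles, NK-like, a head and brain gene) had all 4 downstream of its 2768 bp, between 11217 and 17377 bp from it, with signals of 432, 382, 314 and 190. B-H2 (BarH2, NK-like, a gene of sensory organs, eye and distal leg) had all 4 in the stretch between it and B-H1, 6272 to 31793 bp away. B-H1 itself was nearest to none. Lim1 (LIM class) had 2 in introns and 2 past its 3' end, the strongest at 1004 bp (signal 378). OdsH (paired class) had 3 in intron 1 and 1 lying 989 bp past the gene, and its neighbour unc-4, a gene of neuron identity, had 2. At ems and B-H2, as at en, the summits stood apart from the gene they were assigned to, and distance alone made that assignment.

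**Figure D3:**
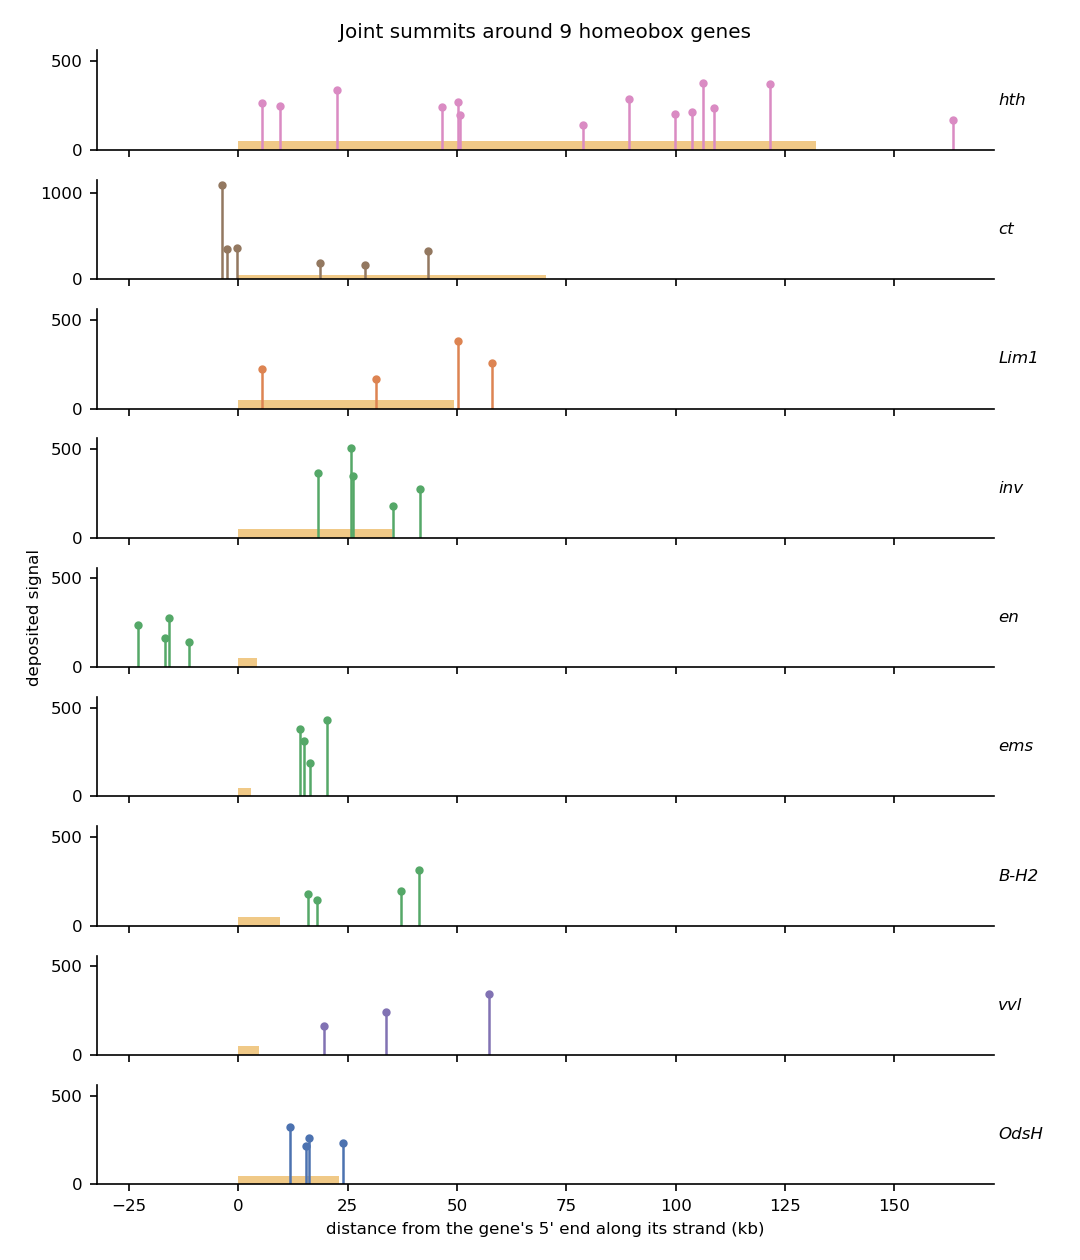
Position of joint summits, as distance in kb from the 5' end along the gene's strand, and their deposited signal, at 9 homeobox genes (coloured by class; the orange band is the gene from its 5' to its 3' end). Summits spread over the introns of hth, while those of en, ems, B-H2 and vvl lie outside the gene.

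Genes with 3 summits were mirr, vvl, oc, tup and so. The summit of oc outside its promoter was its strongest, with signal 377, 6070 bp upstream. The 3 at vvl (ventral veins lacking, a POU gene of trachea and wing veins) lay 14765 to 52565 bp downstream, the last being the farthest of all 41 summits outside the genes. The LIM gene tup (tailup, an Islet protein of motor neurons and heart) had 2 in intron 1 and its strongest, with signal 383, 9014 bp upstream. Optix, caup and unc-4 had 2 each. The 10 genes with 1 summit were al, otp, lbe, ara, unpg, nub, Dll, tin, C15 and vnd. Among them nub, a POU gene of the wing hinge, had a peak in intron 2 with signal 530 and ranks 1793 and 719. otp (orthopedia, paired class) had the only summit of the set in a coding exon, with signal 475 (2R, 20884481 to 20884674). It stood at rank 633 in replicate 1 and 3439 in replicate 2. An Optix summit and one at so also lay inside annotated long non-coding RNA genes, CR45267 and CR44203.

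By class, a nearest summit was found at 5 of 19 paired genes (26.3%) and at 1 of 6 HOX-like genes (16.7%), namely unpg. It was found at 9 of 16 NK-like genes (56.2%), 2 of 4 LIM, 2 of 4 POU, 4 of 5 TALE and 2 of the 3 genes of the sine oculis class, and at ct. Over all protein-coding genes of any length the share was 22.3%, and the classes differ in length. The median was 11949 bp for paired, 7433 bp for NK-like, 15347 bp for TALE and 11247 bp for sine oculis class genes. Of all genes from 5000 to 20000 bp, 40.1% were nearest to a summit, and the paired share was below that. LIM and POU genes had medians of 25463.5 and 28984 bp, where the share of all genes was 60.6%. HOX-like genes had a median of 3889.5 bp, where it was 14.2%. The paired and NK-like genes differ in surroundings too, with 403 kb and 604 kb in all. Per 10 kb there were 0.273 summits at paired genes, 0.364 at NK-like, 0.373 at LIM, 0.196 at POU, 0.597 at TALE and 0.914 at sine oculis class genes. The last value rests on 5 summits in 54.7 kb and the TALE value on hth, which had 14 of its 20. In the libraries taken singly, paired genes with a summit numbered 6 in replicate 1 and 5 in replicate 2, NK-like genes 10 and 6, TALE genes 3 and 4, and POU genes 3 and 2. LIM and sine oculis class genes numbered 2 each in both. NK-like and paired genes with a summit were thus 10 of 16 and 6 of 19 in replicate 1, and 6 of 16 and 5 of 19 in replicate 2. The NK-like share was the higher in both, with a smaller gap in replicate 2. No difference between classes was tested.

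The middle of the signal distribution at the homeobox peaks was close to that of all joint peaks, but few of them were among the strong ones. The median over the 76 was 232, against 248 over all joint peaks, at percentile 45.7 of the list, and 40.8% of them lay among the 3135 strongest. Above the upper quartile of all joint peaks, 412, there were 6 of the 76 (7.89%, against 25% of all joint peaks by definition). Among the 1000 strongest joint peaks there were 2 (2.63%, against 15.9% of all). Below the lower quartile, 176, there were 19, the same share as over all joint peaks. Within each library's own strongest peaks, 8 of 85 homeobox peaks (9.41%) were above the upper quartile in replicate 1 and 4 of 62 (6.45%) in replicate 2, so both libraries had few strong peaks at these genes. By class the median was 234 for paired genes (11 peaks), 222 for LIM (7), 219 for NK-like (22), 292 for POU (4), 210 for TALE (20) and 221 for the sine oculis class (5). Within each library's own list the median percentile was 37.5 in replicate 1 and 51.1 in replicate 2 (SD 9.64, n = 2). The homeobox peaks thus lay below the middle of the list in replicate 1 and near it in replicate 2.

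**Figure D4:**
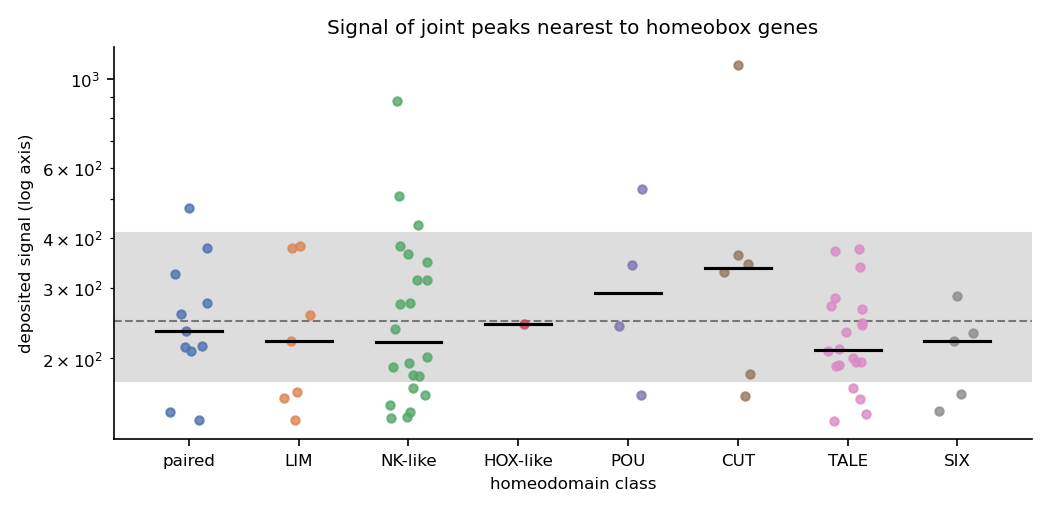
Deposited signal (log axis) of the 76 joint peaks nearest to homeobox genes, by class (the sine oculis class is drawn last, under its short name), with the class median as a black line. The grey band spans the lower to the upper quartile of all 6270 joint peaks (176 to 412) and the dashed line their median (248), and 51 of the 76 points fall in the band.

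Of the 76 peaks, 57 overlapped one of the 6270 strongest peaks of both libraries, a share of 75% (95% exact binomial interval 63.7 to 84.2%). Over all joint peaks the share was 74.7%. A further 13 (17.1%, all joint peaks 12.0%) were among the strongest of replicate 1 only. Those of replicate 2 only numbered 5 (6.58%, all joint peaks 12.4%), and 1 was among the strongest of neither. The log2 ratio of replicate 2 to replicate 1 signal, centred on its median over all joint peaks, had a median of -0.05 at the homeobox peaks and an SD of 0.58, against 0.72 over all joint peaks. 2 peaks were over 2-fold higher in replicate 2 and 2 in replicate 1, and the same count over all joint peaks is not given here. The extremes were a peak in hth at 1.68 (3R, 10589193 to 10589572, signal 59.6 and 198 in replicates 1 and 2) and the exonic peak of otp at -1.59 (signal 353 and 121). Peaks at unpg and vnd had no counterpart in the full list of replicate 2. Over all joint peaks, 124 had none in the full list of replicate 1 and 153 none in that of replicate 2. A place in the joint list thus does not mean a peak in both libraries. The interval covers counting error only and treats peaks as independent.

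**Figure D5:**
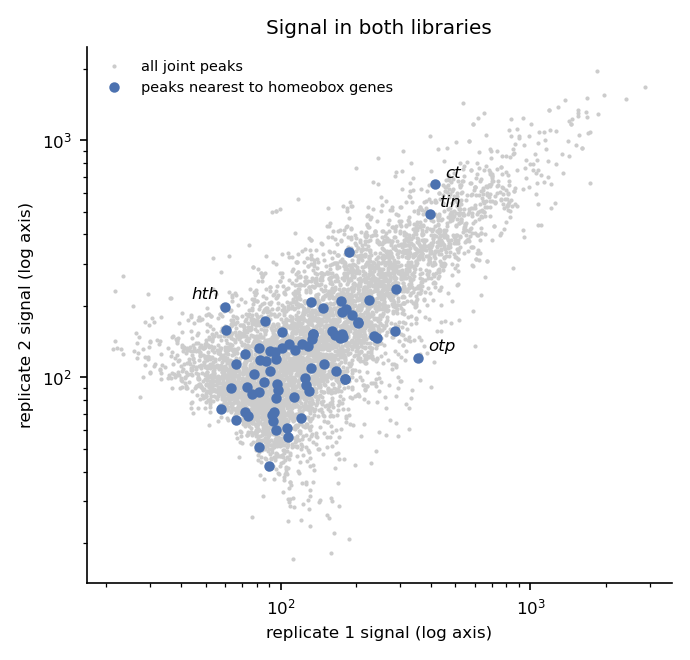
Deposited signal in replicate 1 and replicate 2 (log axes, each on its own scale) of all joint peaks found in both libraries (grey) and of the 74 nearest to homeobox genes (blue). The ct and tin peaks stand high in both libraries, and the labelled hth and otp peaks lie farthest from the others, at centred log2 ratios of 1.68 and -1.59.

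Places of the peaks were compared with those of all joint peaks. Of the 76, 41 (53.9%) were intergenic, 34 (44.7%) in introns and 1 in a coding exon. Over all joint peaks 37.2% were intergenic, 53.7% in introns and 8.56% in untranslated exons, where the homeobox genes had none. The 41 outside genes lay a median of 6272 bp from the nearest gene, against 902 bp over all joint summits outside genes, and 39.0% of them were over 10000 bp away, against 13.3%. Of the 34 in introns, 13 were at hth, and 12 of the 34 were in intron 1 of every transcript that spans them. The same count over all intronic joint peaks is not given here. The peaks of homeobox genes were thus more often distal than joint peaks in general, and the wide gaps around these genes are part of that measure.

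Sequence was examined within 50 bp of each summit, on both strands. TAATTA, which reads the same on both strands, lay in 7 of the 76 windows, 9.21% (95% exact binomial interval 3.78 to 18.1%), and in 9.33% of all joint windows. The 7 were nearest to nub, en, OdsH, unpg, Optix, Lim1 and B-H2. TAATTG lay in 6 windows (7.89%, all joint windows 10.4%), and 2 windows, at unpg and Lim1, held both. GGATTA, read by Bicoid-type homeodomains, lay in 3 windows (3.95%, all 3.43%), and TGACAG, read by TALE proteins of the Homothorax type, in 2 (2.63%, all 2.39%). None of the 14 summits at hth held TAATTA. The paired-class dimer site, in which TAAT is followed by ATTA after 2 or 3 bases, lay in 0 of 76, which allows a share of up to 3.95% counted as 3 windows, or 4.74% by the exact binomial interval, where all joint windows held 1.56% and 1.44%. For TAATTA and TAATTG the interval of the homeobox share (2.95 to 16.4% for TAATTG) held the joint share, so no difference was detectable with 76 peaks.

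Base composition was set beside the core and the libraries. The median GC content was 31.7% in the homeobox windows and 31.7% in all joint windows. Among the fifth of joint windows with the lowest GC content, up to 25.7%, 17.3% held TAATTA, and 5 of the 19 homeobox windows there did. In the fifth with the highest, 0.928% of joint windows and 0 of 16 homeobox windows did. In the 3 groups between, from low to high GC content, 0 of 11, 0 of 15 and 2 of 15 homeobox windows held it, against 11.7%, 8.79% and 5.90% of joint windows. The median centred ratio was 0.27 in the 19 AT-richest homeobox windows and -0.25 in the 16 GC-richest, against 0.30 and -0.25 over all joint windows of the same GC content. Between them it was -0.08, -0.34 and 0.07 at the homeobox windows and 0.00, -0.11 and -0.14 over all joint windows, so the homeobox medians did not fall steadily with GC content. The part of base composition in the differences between libraries was not tested.

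The remaining 32 genes had no nearest joint summit. They include 14 paired genes, namely prd, gsb, gsb-n, ey, toy, Rx, Drgx, Vsx1, Gsc, Ptx1, hbn, PHDP, Pph13 and repo. The Pax6 genes ey and toy of eye development, both on chromosome 4, are among them, as is the glial gene repo. The 7 NK-like ones were bap, lbl, slou, B-H1, scro, H2.0 and bsh, and the 5 HOX-like ones eve, exex, ind, cad and ro. The others were ap and Lim3 of the LIM class, pdm2 and acj6 of POU, exd of TALE and Six4 of the sine oculis class. Their median surroundings were 16385 bp, against 33385 bp for the 26 with a summit.

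In the pooled list of 30000 peaks, 21 of the 32 were nearest to some peak, whose strongest signal ran from 35.2 to 137. The lowest signal in the joint list is 137.03. The highest of the 21 was at pdm2, a POU gene neighbouring nub, with signal 136.96 and rank 6275, just outside the joint list (named here after its value was seen), and the lowest homeobox peak just inside it was at hth (139). With a q-value no higher than 0.05 required, the pooled list had a peak at 8 of the 32, and 11 had no pooled peak at all, namely eve, toy, Six4, exd, Gsc, Pph13, repo, ind, ro, H2.0 and bsh. Among the strongest peaks of replicate 1, 4 of the 32 were nearest to one (Ptx1, pdm2, H2.0 and cad), and 0 in replicate 2. The same shares over all protein-coding genes without a joint summit are not given here, so these counts describe the 32 genes only. A gene without a joint summit is thus a gene below this threshold, and the read depth behind each list is unknown here.

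Several members stand side by side. The Iroquois genes ara, caup and mirr span 130 kb of 3L (12580672 to 12710249) with no other protein-coding gene, and held 6 summits, with 8 in replicate 1 and 4 in replicate 2. The genes gsb and gsb-n, a pair of segment polarity genes on 2R, held 0 over 24.3 kb in the joint list and in either library. In the cluster of muscle and heart genes on 3R, tin, lbe and C15 had 1 summit each, and bap, lbl and slou none. Among other homeobox genes, 11 of 29 matched genes were nearest to a joint summit, as were 6 of the 8 Hox genes. The share over all protein-coding genes was 22.3%, which is not matched for gene length. CG34367 itself was nearest to none, in the joint list or among the strongest peaks of either library.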

How the data were processed

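Peak lists of 2 ChIP-seq libraries were used as deposited on build dm6: replicate 1, replicate 2, their pool (30000 peaks each) and the joint list of 6270. The deposited text descriptions say that the authors called the 2 library lists and the pool against a shared control, not analysed here, and made the joint list from them by IDR. Chromatin was sonicated to 200 to 800 bp, per the labels. No source used here names the peak caller. The deposited signal per peak is the authors' own value on an unstated scale and was therefore ranked and described within a list. The deposited -log10 q-value is capped and was used only for the threshold of 0.05, which 9154 peaks of replicate 1, 18385 of replicate 2 and 13029 of the pool met. Read depth is not given, so the precision of a single signal is unknown.

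Genes and TSS came from Ensembl release 115, and sequence from the RefSeq assembly, in which 0 peaks passed the end of an arm. Coordinates are 1-based. A summit was given to the protein-coding gene whose body was nearest, ties to each. Surroundings were measured on a grid of 10 bp. Library peaks were matched to joint peaks by an overlap of at least 1 bp, taking the strongest. The assignment was tested on placed summits with known answers.

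The genes, classes and lists were chosen with earlier results of these data known. A rule set which values could be named: each promoter peak, the 20 strongest peaks and the genes with most summits, widened to all 13 with 3 or more because of ties. Some of the 20 strongest peaks are covered above only by a count or a range. Length classes, gene-complex spans, surroundings and the values without hth or scro were added after the counts were seen. Of the 30 other homeobox genes listed, 29 matched, 1 through an older symbol. Alternatives covered promoter windows of 250 and 1000 bp, genes extended by 2000 bp, the 3135 strongest joint peaks, each library alone, the pool at the q threshold, the nearest TSS, genes of every biotype, library peaks covering at least 50% of the joint peak, full library lists at the q threshold, and motif windows of 100 bp. Python 3.11.15, numpy 2.4.6, pandas 2.3.3, scipy 1.17.1, Biopython 1.88 and matplotlib 3.10.9 were used.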

Additional observations from a re-analysis of the deposited data

How the results depend on the processing

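No paired analysis was possible because the series has 1 group. Leaving out each library in turn gave 5 to 12 genes with a promoter summit (joint list 6, and 12 without replicate 2), 13 to 13 with one inside (13), 22 to 29 as nearest gene (26) and 62 to 85 nearest summits (76). The same step gave a median percentile of 37.5 to 51.1 (45.7) and a TAATTA share of 7.06 to 8.06% (9.21%). With the 3135 strongest joint peaks, which are fewer peaks by construction, the counts were 3 at promoters (all genes 9.8%), 7 inside (8.29%), 15 as nearest gene (13.9%) and 31 summits. The pooled list was also limited to its 13029 peaks of q-value 0.05 or less, which are more by construction. There 20 genes (34.5%, all genes 30.1%) had a promoter summit, 21 (36.2%, all genes 21.0%) one inside, and 178 summits were nearest. The promoter share was not below that of all genes of any length there, and it was not matched for length. Extending each gene by 2000 bp, a wider target by construction, gave 22 genes with a summit inside (37.9%, all genes 34.0%). Against the full library lists at that q-value, 97.4% of the 76 peaks were found in both libraries, as were 92.6% of all joint peaks. The other settings moved counts by at most 1.5 times and shares within their interval, among them the nearest TSS (24 genes, 66 summits) and genes of every biotype (25 genes, 66 summits). The share over all genes with the nearest TSS or with every biotype is not given here, so only the homeobox counts are compared. Leaving out hth, tried after the data were seen, gave 62 summits and a TAATTA share of 11.3%. The round length of the replicate and pooled lists is not a depth, and which weaker peaks are real cannot be read from them.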
